A study of Mus musculus with 1479 samples.

Results

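Cluster 6 is 1 of the 11 groups into which the study divided single cells of the mouse urinary bladder, and it holds 12.7% of the 1479 cells: 130 from PdgfrbGFP mice, 30 from PdgfraGFP, 19 from C57BL6, 6 from Acta2GFP and 3 from Cspg4dsRED mice. Its members were taken by the cluster number in each cell's label, with no use of any gene. The authors had derived that number from the same expression values, so the genes that set cluster 6 apart are described below and not tested. The comparison cells were the 925 cells of clusters 1, 2, 3, 7 and 8. The mice were adult males of 10 to 20 weeks. PdgfrbGFP mice carry a transgene in which Pdgfrb drives a green fluorescent protein, PdgfraGFP mice a nuclear green fluorescent protein placed in the Pdgfra gene, Acta2GFP mice an Acta2 transgene and Cspg4dsRED mice a Cspg4 transgene for a red protein. C57BL6 mice had no reporter, and their cells were sorted with antibodies. Cells that carried the endothelial protein CD31 were excluded, and elastase was added for the Acta2GFP tissue. Each library was 1 cell, made with Smart-seq2, a full-length protocol without molecular identifiers, and the labels name no animal.

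Fibroblasts of the bladder lie beneath the urothelium, between the bundles of the detrusor muscle and around vessels, and they build the collagen, laminin and elastic matrix that lets the wall stretch. Interstitial cells with PDGF receptor alpha are known to respond to purines: P2ry1, a receptor for ADP, raises intracellular calcium, which opens small-conductance calcium-activated potassium (SK) channels such as the one encoded by Kcnn3. Svep1 encodes a large adhesive protein of the extracellular matrix with a known role in lymphatic vessels. Kcnn3 and Svep1 were the markers proposed for cluster 6.

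Cluster 6 was found in all 5 lines, in unequal shares. Among the cells of clusters 1, 2, 3, 6, 7 and 8 it made up 25.5% (55 cells, exact 95% interval 19.8 to 31.8%) of the PdgfrbGFP cells on plate bladder_881s. On bladder_074s its share of PdgfrbGFP cells was 18.9% (66 cells, exact 95% interval 14.9 to 23.4%), and on bladder_515s it was 5.88% (9 cells, exact 95% interval 2.72 to 10.9%). Within this 1 line the intervals of bladder_515s and of the other plates did not overlap. The share was 24.4% (30 cells, exact 95% interval 17.1 to 33%) in PdgfraGFP cells on bladder_689s, 11.4% (19 cells, exact 95% interval 7.03 to 17.3%) in C57BL6 cells on bladder_443s and 8.22% (6 cells, exact 95% interval 3.08 to 17%) in Acta2GFP cells on bladder_515s. The sort by reporter sets which cells enter, and intervals cover counting error only. The Cspg4dsRED line held too few cells for a comparison. The comparisons below used the other cells of cluster 6 and 895 comparison cells, in 6 groups of cells that share a plate and a line.

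**Figure D1:**
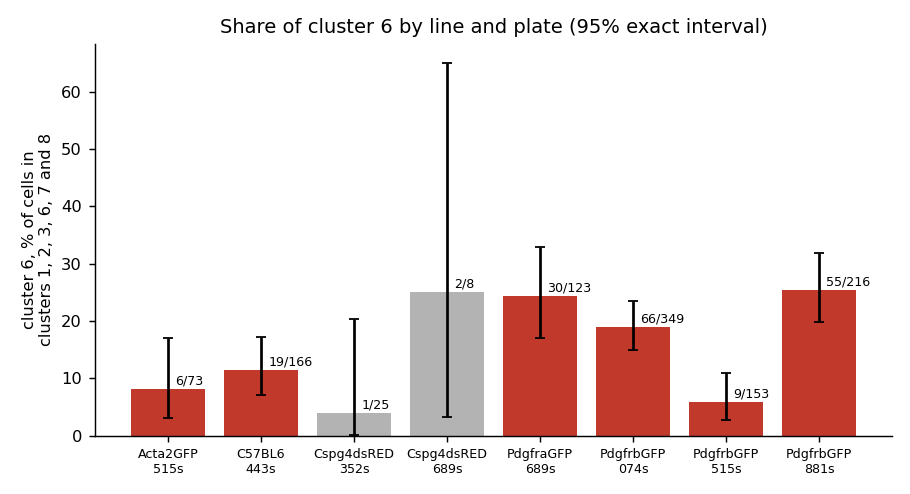
Bars give cluster 6 as a percentage of the cells in clusters 1, 2, 3, 6, 7 and 8 for each line and plate, with exact 95% intervals. Red bars are the 6 groups used in the comparisons, which run from 5.88% to 25.5%, and grey bars are the Cspg4dsRED groups with 3 cluster 6 cells in all.

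Cluster 6 cells had a median of 306896 reads, with a range from 50450 to 1235330. Within the 6 groups, the median of total reads was 0.06 ± 0.32 higher than in comparison cells on the log2 scale (mean ± SD, 2-sided exact sign-flip permutation test, n = 6, p = 0.719, the smallest possible p being 0.0312). The share of reads from ERCC spike-in RNA, an artificial RNA added in equal amount to each well, differed by -0.01 ± 0.12 (n = 6, the same exact test, p = 0.969). Both differences were smaller than the spread between groups. After each cell was thinned to 50000 reads, the median number of genes per cell ran over the groups from 2502.5 to 4445 in cluster 6 and from 2332 to 4552 in comparison cells, highest in both for PdgfrbGFP on bladder_881s.

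Both proposed markers were higher in cluster 6, Kcnn3 by the larger factor. Values are reads per 500000 reads of the cell's own genes, averaged over the cells of a group. In cluster 6, Kcnn3 (chr3:89520164-89675132, plus strand, GRCm38) stood at 507, 610, 493, 416, 377 and 678 in Acta2GFP, C57BL6, PdgfraGFP and the PdgfrbGFP groups on bladder_074s, bladder_515s and bladder_881s. In the same order the comparison cells stood at 112.5, 248.97, 126.4, 206.7, 92.5 and 187.3. The lowest cluster 6 group lay above the highest comparison group. The group means were 513 ± 113.96 and 162.4 ± 61.2 (SD, n = 6 groups), and the fitted log2 fold change was 1.73 ± 0.17 (SE). Medians over cells lay further apart than these means: 375 to 678 in cluster 6 and 1.54 to 96.2 in comparison cells. At equal depth, 97.3% (93.9 to 99.1%) of cluster 6 cells had a Kcnn3 read. The share was 87.8% (83.8 to 91%) in cluster 3, 79% (70 to 86.4%) in cluster 1, 64.1% (51.1 to 75.7%) in cluster 2, 63.7% (56.3 to 70.7%) in cluster 8 and 59.2% (52.5 to 65.7%) in cluster 7, so most comparison cells also held a read. Cluster 11 had 82.4% (69.1 to 91.6%), and the lowest share of the 11 clusters was 26.4% (18.9 to 35%) in cluster 10, which had the highest level of the mural gene Acta2. Median depths before thinning were 310756 reads in cluster 6, 251583 in cluster 3 and 130406 in cluster 10.

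Among the other SK channel genes, Kcnn1 stood at 0.543 ± 0.685 reads per 500000 per kilobase of exon in cluster 6, where Kcnn3 stood at 49.1 ± 10.9 on that scale. Kcnn2 and Kcnn4 were too low to enter the fit. Cluster 6 had the highest Kcnn3 level of the 6 clusters in 6 of 6 groups. Over all 11 clusters it ranked first, ahead of cluster 3 at 302.5 ± 126.8 (n = 6 groups). The ranges over groups of clusters 6 and 3 overlapped, from 377 to 678 and from 134.5 to 433.

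Svep1 (chr4:58042442-58206859, minus strand) was higher in cluster 6 than in the comparison cells of all 6 groups, by a smaller factor. Cluster 6 stood at 1109, 1536, 1868, 541, 712 and 894 reads per 500000 in the order given above, and the comparison cells at 616, 879, 644, 302.2, 580 and 470. The ranges overlapped over groups, and the PdgfrbGFP group on bladder_515s showed the smallest difference. The fitted log2 fold change was 0.93 ± 0.13 (SE), below the limit of 1 used for calls. Svep1 was highest in cluster 6 in 4 of 6 groups. Of the 5 comparison clusters, cluster 8 was closest, with a log2 fold change of 0.20 ± 0.17 between the pair. Over all 11 clusters, cluster 11 ranked next after cluster 6, at 873 ± 338.5 (n = 3 groups). The predicted gene Gm26889 overlaps Svep1 on the other strand, and since the strand setting of the counting is not stated, reads of the pair cannot be told apart.

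**Figure D2:**
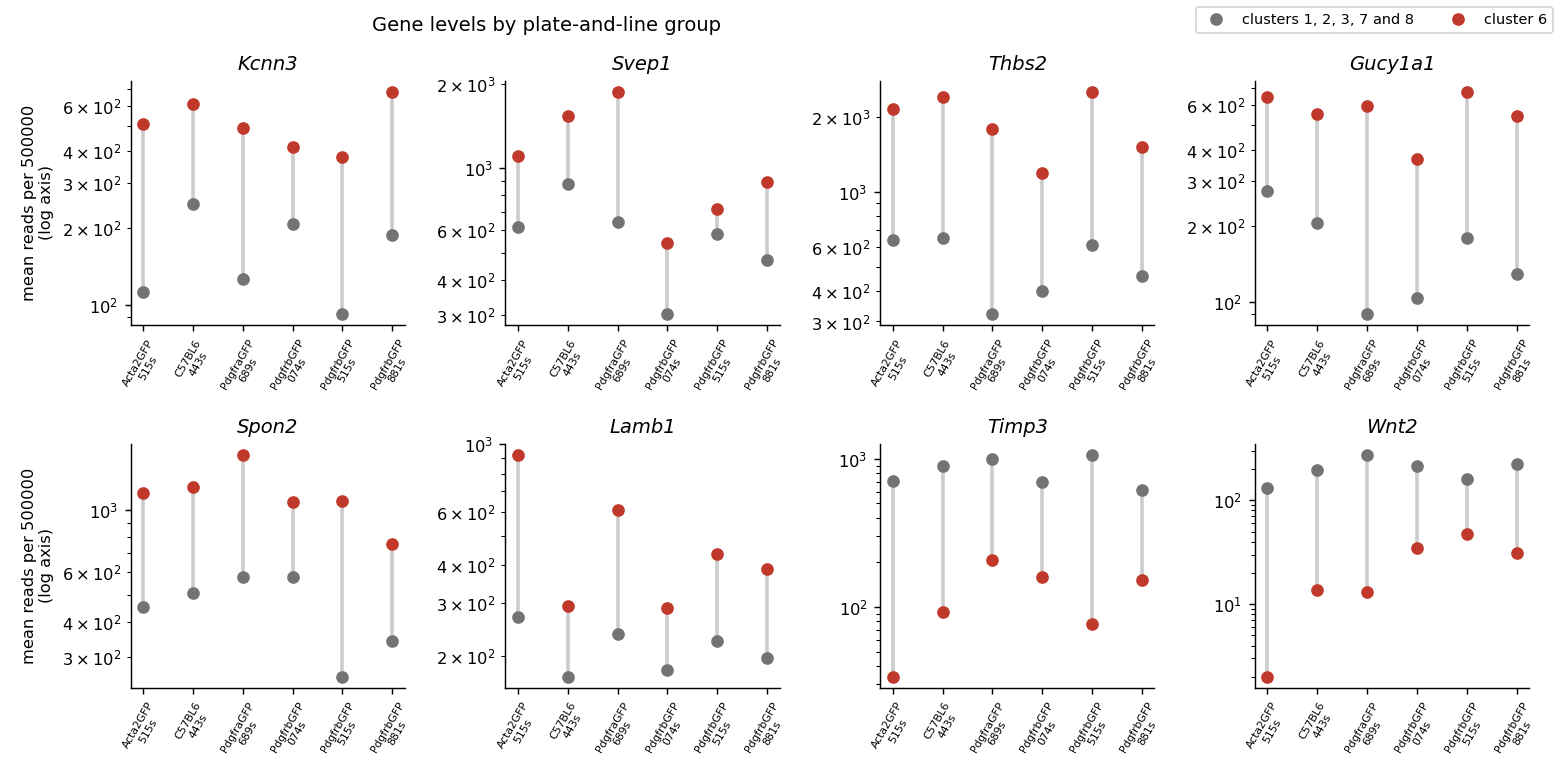
Points give the mean level (reads per 500000, log axis) of 8 genes in cluster 6 (red) and in clusters 1, 2, 3, 7 and 8 (grey) for each of the 6 plate-and-line groups. Cluster 6 is the higher point in every group for Kcnn3, Svep1, Thbs2, Gucy1a1, Spon2 and Lamb1 and the lower point in every group for Timp3 and Wnt2.

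Across all genes, 71 of 13728 fitted genes were called, that is 0.517%, with 31 higher in cluster 6 (0.226%) and 40 lower (0.291%). A gene was called when edgeR's quasi-likelihood fit to the summed counts put its p, adjusted by the Benjamini-Hochberg method, below 0.05 and its log2 fold change at or beyond 1 in either direction. The calls describe how far a difference repeats over groups and are no independent evidence for the cluster. The 3 PdgfrbGFP groups may share animals, in which case the spread is understated. The median gene had a log2 fold change of -0.36, and with that gene set to 0 the calls were 0.860% higher and 0.364% lower. Leaving out 1 group left 14 genes called without PdgfrbGFP on bladder_881s, 16 without C57BL6, 21 without PdgfraGFP or without PdgfrbGFP on bladder_515s, 34 without PdgfrbGFP on bladder_074s and 62 without Acta2GFP. DESeq2 called 0.721% higher and 4.12% lower. With sums per line in place of plate and line, 4 genes were called, all higher: Kcnn3, Thbs2, Spon2 and Nr4a1.

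Of the genes for SK channels and purinergic signalling, 16 were fitted, 2 were called higher, as against 0.226% of all genes, and none lower. Beside Kcnn3 this was P2ry1 (33.1 ± 19.8 in cluster 6 and 5.06 ± 3.32 in comparison cells, log2 fold change 2.57 ± 0.48). At equal depth 22.5% (16.7 to 29.1%) of cluster 6 cells had a P2ry1 read, 10.4% (6.40 to 15.8%) of cluster 8 cells and 4.80% (1.78 to 10.2%) of mural cluster 10. Before thinning the share with a read varied by group. It was 6.67% of cluster 6 cells and 3.23% of comparison cells in the PdgfraGFP group, 30.3% and 27.9% in PdgfrbGFP on bladder_074s, and 63.6% and 44.1% in PdgfrbGFP on bladder_881s. In Acta2GFP it was 16.7% (1 of 6 cells) and 2.99%, in C57BL6 15.8% and 4.08%, and in PdgfrbGFP on bladder_515s 11.1% and 9.03%. Cluster 8 had a P2ry1 level of 37.8 ± 67.9 (n = 8 groups), with a range over groups from 0 to 201.9, and was not called apart from cluster 6. Entpd2, an enzyme that breaks down extracellular ATP, stood at 876 ± 139.7 in cluster 6 and 747 ± 48.5 in comparison cells and was not called. Entpd1, of the same enzyme family, stood at 7.06 ± 5.53 and 42.8 ± 16.9, lower in all 6 groups, and was not called either. The levels of P2rx4, an ATP-gated channel, were 67.1 ± 23.6 and 49.2 ± 19.9. The median log2 fold change of the list was -0.31, beside -0.36 over all genes.

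Genes that act on calcium stores and on cyclic GMP, the messenger of nitric oxide, each held 1 called member. Atp2a2, the calcium pump SERCA2, stood at 134.6 ± 20.4 in cluster 6 and 67.2 ± 13 in comparison cells (log2 fold change 1.27 ± 0.20), and it was the only one called of 17 fitted calcium and gap junction genes, where 0.517% of all genes were called. The median of that list was -0.58, below the -0.36 of all genes. Of the 5 comparison clusters taken alone, Atp2a2 was called against cluster 7 only. Cluster 2 stood at 146.2 ± 135.99 (n = 6 groups) and mural cluster 10 at 218.4 ± 89.97 (n = 7 groups). Cluster 6 was the highest of the 6 clusters in 5 of 6 groups. Gucy1a1 (chr3:82092427-82145789, minus strand), the alpha subunit of the guanylate cyclase that senses nitric oxide, was the only one called of 9 fitted genes in its list, beside the same 0.517%. Its cluster 6 levels were 649, 556, 596, 367, 676 and 545 reads per 500000, in the order of groups above. The comparison cells held 273.8, 204.6, 89.8, 103.4, 178.8 and 129.7. No comparison group reached the lowest cluster 6 group, and the log2 fold change was 1.80 ± 0.22. The mural cluster 10 had a level of 581 ± 167.04 (n = 7 groups), beside 565 ± 109.6 in cluster 6. Gucy1b1, the partner subunit, stood at 52.3 ± 25 in cluster 6 and 21.1 ± 9.13 in comparison cells and was not called. At equal depth, 93% of cluster 6 cells held reads of both Kcnn3 and Gucy1a1, against 56.5% of comparison cells. Taken separately, Kcnn3 and Gucy1a1 had a read in 97.3% and 94.1% of cluster 6 cells and in 87.8% and 86.6% of cluster 3 cells. The joint share was not tested against the separate shares.

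Several genes of the extracellular matrix differed at high levels. Thbs2 (chr17:14665500-14694235, minus strand), which encodes the secreted glycoprotein thrombospondin 2, had cluster 6 levels of 2167, 2420, 1792, 1196, 2531 and 1517 reads per 500000, in the order of groups above. Comparison cells stood at 640, 650, 321.9, 397, 610 and 458. The groups did not overlap. The log2 fold change was 2.02 ± 0.12, and Thbs2 was the only gene called against each of the 5 clusters alone, at 1.85 to 2.52. Outside the comparison clusters, cluster 5 had a level of 2147 ± 585 (n = 5 groups) and cluster 11 one of 1522 ± 173.5 (n = 3 groups).

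Spon2, a matrix protein of the spondin family, stood at 1137 ± 261.6 in cluster 6 and 452 ± 129.7 in comparison cells (log2 fold change 1.39 ± 0.14), and cluster 6 had the highest level of the 6 clusters in 6 of 6 groups. Taken alone, clusters 1, 7 and 8 gave a call. Against clusters 3 and 2 the log2 fold changes were 0.59 ± 0.20 and 0.67 ± 0.45, and neither was called. Cluster 11 stood at 1085 ± 319.8 (n = 3 groups). Among 25 fitted matricellular and adhesion glycoproteins, Thbs2 and Vwa1 (1.02 ± 0.18), a matrix protein with a von Willebrand factor A domain, were called higher and fibronectin, Fn1, lower, as against 0.226% and 0.291% of all genes. Smoc2, a calcium-binding matrix protein, stood at 1718 ± 286.1 in cluster 6 and 974 ± 256.6 in comparison cells, and matrilin 2, Matn2, at 1219 ± 264.4 and 818 ± 242.7. Both were higher in all 6 groups with fold changes under the limit.

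Basement membrane genes had a median log2 fold change of 0.49 over 20 fitted members, beside -0.36 over all genes, and 6 of them were higher in every group, as against 1.52% of all fitted genes. Lamb1, the laminin beta 1 chain, was the 1 called member (489 ± 242.5 in cluster 6 and 213.4 ± 37.4 in comparison cells, log2 fold change 1.19 ± 0.13). Its partner chain Lamc1 stood at 373 ± 114.03 and 215.1 ± 52.2, Lama4 at 290.6 ± 106.4 and 163.98 ± 36.5, and the linker protein nidogen, Nid1, at 628 ± 211.1 and 425 ± 137.4. None of these 3 was called. The 6 fitted fibrillar collagens had a median log2 fold change of 0.27, also above that of all genes, with values from 0.24 to 0.75 and no call, where 0.517% of all genes were called. Col1a1, a chain of type I collagen, stood at 4154 ± 1278 and 3646 ± 548.

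Timp3 had the highest comparison level among the genes called lower. It encodes a matrix-bound inhibitor of metalloproteinases. Its levels in cluster 6 were 33.9, 92.3, 208.9, 158.3, 77.2 and 151.99 reads per 500000 and in comparison cells 705, 889, 999, 691, 1063 and 620. The groups did not overlap. The log2 fold change was -2.90 ± 0.34, and against single clusters it ran from -3.56 ± 0.33 for cluster 7 to -2.09 ± 0.61 for cluster 8, with a call against all but cluster 8. Timp2 stood at 234.8 ± 65.6 reads per 500000 per kilobase in cluster 6 and 251.3 ± 61.8 in comparison cells, where Timp3 stood at 14.8 ± 7.85 and 101.7 ± 22.3. Timp3 was the only one called of 28 fitted matrix proteases and inhibitors, as against 0.517% of all genes. It lies on the plus strand at chr10:86300372-86349506 within Syn3, a synapsin gene of the minus strand that was also called (-2.79 ± 0.30), and without the strand the reads of the pair cannot be told apart.

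Fn1 stood at 109.6 ± 71.2 in cluster 6 and 294.7 ± 83.8 in comparison cells (log2 fold change -1.60 ± 0.23). The Acta2GFP group differed least in Fn1, with 241.3 and 296.2. Efemp1, also known as fibulin 3, stood at 147.9 ± 87.8 and 480 ± 93.3 (-1.58 ± 0.22) and was the only one called of 21 fitted elastic fibre genes, beside 0.517% over all genes. Fbln1, another fibulin of that list, stood at 3520 ± 976 and 3930 ± 1059.

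Wnt pathway genes differed in both directions. Frzb and Sfrp2 encode secreted proteins that bind Wnt ligands, and they went opposite ways. Frzb was called higher (93.5 ± 27.9 in cluster 6 and 24.1 ± 11.6 in comparison cells, log2 fold change 2.03 ± 0.29). Sfrp2 was called lower (1.64 ± 1.61 and 62.1 ± 23.1, -5.19 ± 0.59). Against single clusters the Sfrp2 call was made for clusters 7 and 8, where the gene stood at 110.9 ± 34.2 (n = 7 groups) and 105.2 ± 107.1 (n = 8 groups), while cluster 3 stood at 2.15 ± 1.95 (n = 6 groups). Sfrp1, of the same family, stood at 197.4 ± 74 and 86 ± 33.5 and was not called.

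Wnt2 (chr6:17988940-18030585, minus strand), a ligand, was low in cluster 6 in every group, at 2.01, 13.8, 13.1, 34.6, 47 and 31.1 reads per 500000 as against 129.7, 196.8, 273.5, 215.6, 159.5 and 224.6. The log2 fold change was -3.28 ± 0.42. The Acta2GFP group, with 6 cells, held the lowest value. At equal depth 55.1% (47.7 to 62.3%) of cluster 6 cells had a Wnt2 read, as against 91.2% (86.8 to 94.6%) in cluster 7 and 46.7% (39.3 to 54.2%) in cluster 8. Asz1 (chr6:18050964-18109061), a gene known from germ cells, lies 20.4 kilobases from Wnt2 on the same strand and was called lower as well (0.707 ± 0.908 and 28.2 ± 18.2). Asz1 stood at 45.1 ± 20.6 and 77.5 ± 45.5 in clusters 1 and 7 and at 1.93 ± 3.81 in cluster 8, and cluster 6 was the lowest in 1 of 6 groups. Of 27 fitted Wnt genes 1 was called higher and 2 lower, as against 0.226% and 0.291% of all genes, and 9 were lower in every group, as against 8.73% of all fitted genes.

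Pdgfra, the receptor for PDGF-A and PDGF-C, was called higher (551 ± 194.4 in cluster 6 and 285.6 ± 49 in comparison cells, log2 fold change 1.01 ± 0.14), at the edge of the fold limit. Its lowest level was in the PdgfraGFP group, 293.2 in cluster 6 and 200.5 in comparison cells, the line whose reporter sits in Pdgfra. Per kilobase, Pdgfrb stood at 31.6 ± 9.82 and 40.3 ± 14.6 and Pdgfra at 54.9 ± 19.4 and 28.5 ± 4.88 reads per 500000 in cluster 6 and in comparison cells. The calls in the next 3 lists stand beside 0.517% called over all genes. Of 13 hedgehog genes, the coreceptor Gas1 was called higher (614 ± 166.7 and 342.9 ± 75.2, 1.02 ± 0.10) and Hhip, which traps hedgehog ligands, lower (0.852 ± 0.842 and 13.3 ± 6.13). Hhip was lowest in cluster 6 in 3 of 6 groups and stood at 3.86 ± 4.89 in cluster 8 (n = 8 groups). Gas1 was about as high in cluster 8 (573 ± 222.4, n = 8 groups). Its log2 fold change against cluster 8, over the 6 fitted groups, was 0.01 ± 0.12, and cluster 6 was the highest of the 6 clusters in 2 of 6 groups. Ptch1, the hedgehog receptor, stood at 29.7 ± 19.2 and 81 ± 40.6 and was not called. Spry4, an inhibitor of receptor tyrosine kinase signalling, was called higher (34.3 ± 22.3 and 5.51 ± 3.07) among 19 FGF pathway genes. It was called against none of the 5 comparison clusters alone. Cluster 9 stood at 27.8 ± 21.6 (n = 2 groups) and mural cluster 10 at 15.4 ± 10.9 (n = 7 groups) for Spry4. Bmp3, a BMP ligand, was called lower (0.610 ± 0.583 and 13.7 ± 5.94) as the 1 called gene of 29 in its list. Bmp3 stood at 24.7 ± 16.3 and 38.5 ± 17.2 in clusters 1 and 7, but at 0.553 ± 0.580 in cluster 2 and 0.811 ± 1.09 in cluster 8, close to cluster 6, which was the lowest in 1 of 6 groups.

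Lower levels were also called for C4b, a complement component (9.79 ± 12.1 and 109.7 ± 83.6), for Cyp26b1, an enzyme that degrades retinoic acid (0.0368 ± 0.0571 and 3.57 ± 2.77), and for Sema3c, a secreted guidance cue (87.9 ± 41.2 and 195.1 ± 45.5). Cyp26b1, with 8 reads in cluster 6 and 1668 in comparison cells, entered the fit through the comparison cells alone. C4b and Sema3c were not lower than in every cluster: C4b stood at 6.66 ± 7.36 in cluster 3 (n = 6 groups, log2 fold change 0.72 ± 1.04) and Sema3c at 62 ± 53.8 in cluster 8 (n = 8 groups). The log2 fold change of Sema3c against cluster 8, over the 6 fitted groups, was 0.20 ± 0.24. Neither gene was called there. Hoxa5 was called from 1 read in cluster 6 and 459 reads in comparison cells, as the 1 called gene of 13 fitted Hox genes, as against 0.517% of all genes. Hoxa5 too entered the fit through the comparison cells alone, at a level of 1.10 there. The calls of Cyp26b1 and Hoxa5 are therefore no support for a difference.

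The remaining genes with the largest called fold changes were of mixed function. Dapk2, a calcium and calmodulin regulated kinase, was higher in cluster 6 (46.6 ± 21.2 and 9.14 ± 3.25, log2 fold change 2.38 ± 0.42) and had a read in 25% of its cells at equal depth, as against 14% of comparison cells. Adcyap1r1, the receptor of the neuropeptide PACAP, stood at 143.6 ± 25.6 and 52 ± 17.2 (1.43 ± 0.24), and C1qtnf3, a secreted C1q and TNF related protein, at 624 ± 104.1 and 283.4 ± 111.6 (1.40 ± 0.24). Heyl, a transcriptional repressor of the Hes and Hey family, stood at 112.7 ± 59.1 and 38.8 ± 9.14 (1.39 ± 0.22), Ssc5d, a scavenger receptor family protein, at 135.8 ± 115.4 and 46.4 ± 20.6 (1.57 ± 0.28), and Fam198b at 189.2 ± 48 and 68.7 ± 14.3 (1.58 ± 0.17). Several of these genes were not called apart from every comparison cluster. In cluster 3, Heyl stood at 92.4 ± 64.4 (n = 6 groups, log2 fold change 0.54 ± 0.40) and C1qtnf3 at 486 ± 210.8 (0.64 ± 0.25). Adcyap1r1 stood at 116.1 ± 124.4 in cluster 8 (n = 8 groups), and its log2 fold change over the 6 fitted groups was 0.80 ± 0.33. None of these 3 folds was called. Heyl was higher in mural cluster 10, at 201.7 ± 83.3 (n = 7 groups), and Adcyap1r1 in cluster 11, at 185.7 ± 65.5 (n = 3 groups). Lower were the transcription factor Gata5 (0.601 ± 0.376 and 22.3 ± 6.70), the membrane protein Tmem100 (5.91 ± 6.94 and 54.5 ± 19.5), Scara3 (1.57 ± 2.03 and 34.9 ± 10.9), the matrix proteins Vit (0.281 ± 0.632 and 12.5 ± 10.5) and Thsd4 (0.969 ± 0.716 and 14.5 ± 6.42), and P4ha3, a subunit of collagen prolyl hydroxylase (0.349 ± 0.392 and 10.7 ± 5.20). The comparison level of several of these was mostly that of 1 or 2 clusters. Vit stood at 40.4 ± 46.8 in cluster 8 and at no more than 5.10 ± 10.2 in the other 4, and Thsd4 at 45.4 ± 23.3 in cluster 7, 11 ± 19.5 in cluster 2, 1.39 ± 0.915 in cluster 3 and 1.52 ± 2.56 in cluster 8. Gata5 stood at 59.8 ± 67 and 63.8 ± 24.2 in clusters 1 and 7, and at no more than 7.41 ± 13.8 in the others. Cluster 6 was the lowest of the 6 clusters in all 6 groups for Tmem100, in 3 for Gata5 and Scara3 and in 1 for Vit, Thsd4 and P4ha3. Of the 40 genes called lower, 25 had a level of at least 10 in comparison cells.

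**Figure D3:**
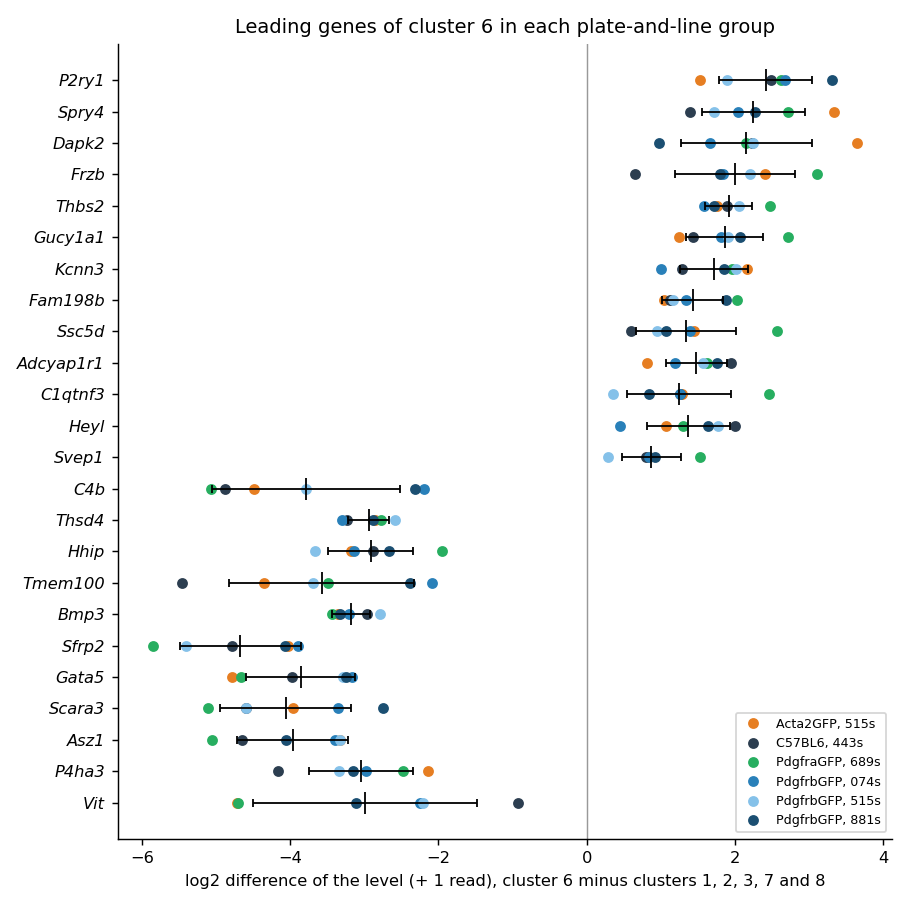
Points give the log2 difference of the level between cluster 6 and clusters 1, 2, 3, 7 and 8 in each plate-and-line group for Svep1 and the leading called genes, and black bars the mean ± SD over 6 groups. All 6 points of a gene lie on the same side of 0, for Kcnn3 and Thbs2 above and for Sfrp2 and Tmem100 below.

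Set against each cluster alone, the share of genes called was highest for cluster 7. The order of the other clusters changed with the method: cluster 2 had 0.0642% here, but 5.28% with DESeq2, beside 3.26% for cluster 1, and 61 genes without Acta2GFP. Against cluster 7, 1.72% of 11807 fitted genes were called, 1.03% higher and 0.686% lower. Leaving out 1 group gave 0.957 to 1.96% of that number, and sums per line gave 0.559%. Dapk2, Fibin, which encodes a small secreted protein, and Heyl led the higher side, with levels of 46.6, 71.5 and 112.7 in cluster 6 and 0.412, 0.630 and 2.47 in cluster 7. On the lower side, among genes with the same sign in every group and a level of at least 10 in cluster 7, Asz1 and the zinc finger gene Zfp536 had the largest falls apart from 1 predicted gene, with 77.9 and 13.7 in cluster 7. The log2 fold changes of Svep1 and Kcnn3 against cluster 7 were 2.61 ± 0.21 and 4.18 ± 0.42, and that of Wnt2 was -4.17 ± 0.35.

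Against cluster 1, 50 of 10671 genes were called (0.469%), 25 each way (0.234%). Fibin, Dapk2 and P2ry1 led the higher side, at 0.407, 0.475 and 0.444 in cluster 1, and Asz1, C4b and Adam23, a gene of the ADAM family, the lower side, at 45.1, 227.99 and 96.2. Against cluster 8, 17 of 11531 were called (0.147%), 6 higher (0.052%) and 11 lower (0.0954%). Kcnn3 led the higher side (513 ± 113.96 in cluster 6 and 83 ± 52.4 in cluster 8, log2 fold change 2.72 ± 0.35), followed by Spon2 (2.13 ± 0.19) and Thbs2 (2.08 ± 0.28). Vit, the estrogen sulfotransferase Sult1e1 (6.07 ± 12.6 in cluster 6 and 187.8 ± 160.03 in cluster 8) and Sfrp2 led the lower side. Against cluster 1, 4 genes were called without C57BL6 and 4 without PdgfrbGFP on bladder_881s, each time 1 higher and 3 lower. Against cluster 8, 3 to 11 genes were called when 1 group was left out, the fewest without PdgfrbGFP on bladder_515s. With counts summed per line over its plates, 1 gene was called against cluster 1 and 1 against cluster 8, both lower.

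Against cluster 3, 6 of 12330 genes were called (0.0487%), 4 higher (0.0324%) and 2 lower (0.0162%). Cilp, a matrix protein known from cartilage, stood at 172.2 ± 44.7 in cluster 6 and 43.7 ± 28.7 in cluster 3 (log2 fold change 2.13 ± 0.29). Thbs2 (1.85 ± 0.18), Fam198b (1.65 ± 0.20) and Ssc5d (1.61 ± 0.20) were the others called higher, and Timp3 (-2.71 ± 0.35) and Syn3 (-2.56 ± 0.29) were called lower. Kcnn3 differed from cluster 3 by 0.85 ± 0.20 and was not called. The calls against cluster 3 fell to 0 without C57BL6, without PdgfrbGFP on bladder_515s, without PdgfrbGFP on bladder_881s and with sums per line, where edgeR gave 504, 554, 594 and 397 genes at an unadjusted p under 0.05. Cilp was higher still in cluster 8, at 619 ± 461 (n = 8 groups). Against cluster 2, with 5 groups, 6 of 9351 genes were called (0.0642%). Thbs2 (2.0 ± 0.37) was higher (0.0107%), and Tmem100, Syn3, Timp3, the mitochondrial ribosomal RNA mt-Rnr2 (-1.04 ± 0.20) and decorin, Dcn (-1.02 ± 0.19), were lower (0.0535%). These calls rose to 61 without Acta2GFP and fell to 0 without C57BL6 and with sums per line, with 592 and 519 genes at an unadjusted p under 0.05 (edgeR). The mean Pearson correlation of log2 levels over 13728 genes within groups was 0.82 with cluster 3 and 0.69 to 0.77 with the other 4. It was 0.70 with cluster 5, outside the comparison clusters. Cluster 3 also held the most cells of the comparison clusters and cluster 2 the fewest, with 64, and the effect of cell number was not tested. These values are across genes, which are not independent replicates, and the points share the plate.

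**Figure D4:**
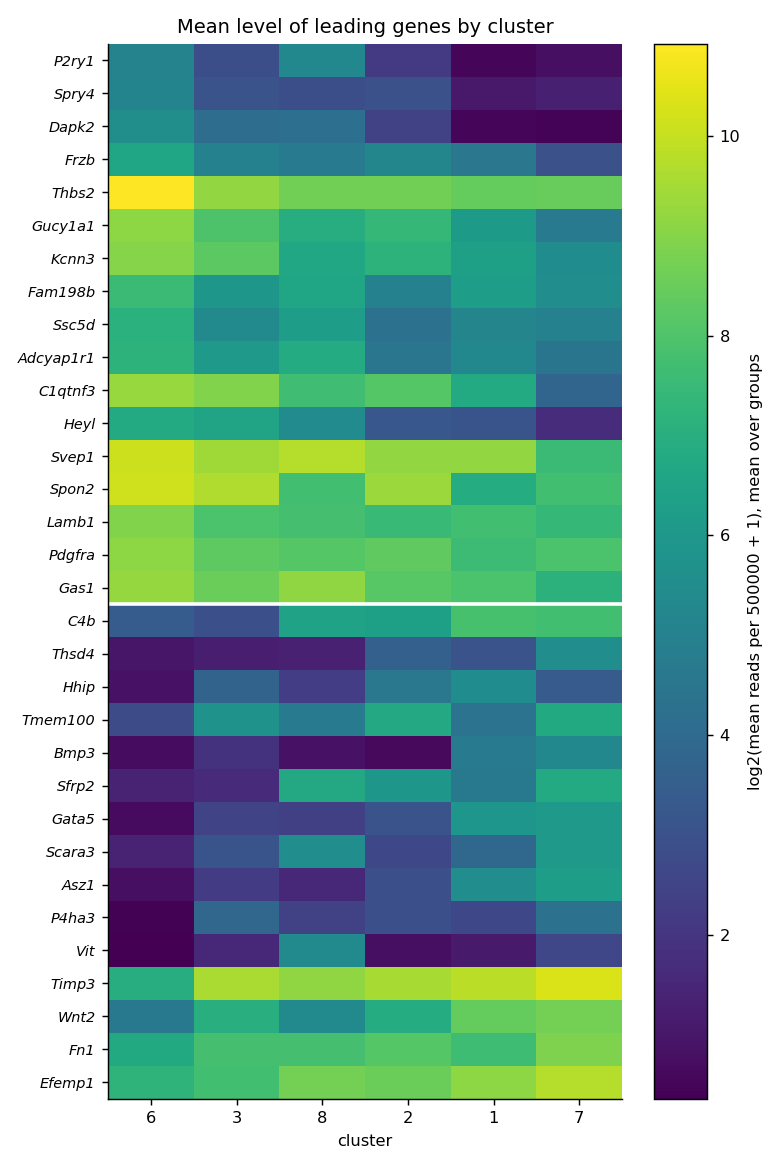
Colours give the level of leading genes, as log2 of the mean reads per 500000 plus 1, in cluster 6 and the 5 comparison clusters, averaged over groups with at least 3 cells. Genes above the white line are higher in cluster 6 and genes below it lower, with Thbs2 at 1937 in cluster 6 and 347 to 582 elsewhere and Timp3 at 120.4 and 579 to 1277.

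Immediate-early genes, which cells switch on quickly after a stimulus, had a median log2 fold change of 0.53 over 24 members, beside -0.36 over all genes. Btg2, a gene that slows proliferation, was the 1 called member (341.4 ± 111.3 and 165.9 ± 50.4, log2 fold change 1.20 ± 0.19), where 0.517% of all genes were called. Its level in cluster 8 was 301.6 ± 126.7 (n = 8 groups). Fos stood at 1696 ± 339.8 in cluster 6 and 1238 ± 161.3 in comparison cells and Nr4a1, an orphan nuclear receptor, at 1054 ± 352 and 562 ± 156.5. The 43 fitted mesenchymal transcription factors had a median of -0.66, below the -0.36 of all genes, 8 were lower in every group, as against 8.73% of all fitted genes, and none was higher in every group. No call among them says little beside the 0.517% called over all genes. Tcf21, a factor of fibroblast precursors, stood at 340.5 ± 83.1 and 295.5 ± 116.5. Of 21 fitted potassium channel genes, Kcnn3 was the 1 called member, again beside 0.517%, while the median of that list was -1.19. The 78 ribosomal protein genes had a median of -0.20, above the -0.36 of all genes, and no call, and 57 members were lower in every group, as against 8.73% of all fitted genes. Of 15 genes that mark adventitial fibroblasts in many organs, Fn1 and Sema3c were called lower, as against 0.291% of all genes, and Pi16, a marker of such cells, stood at 1958 ± 404 and 2328 ± 389.

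**Figure D5:**
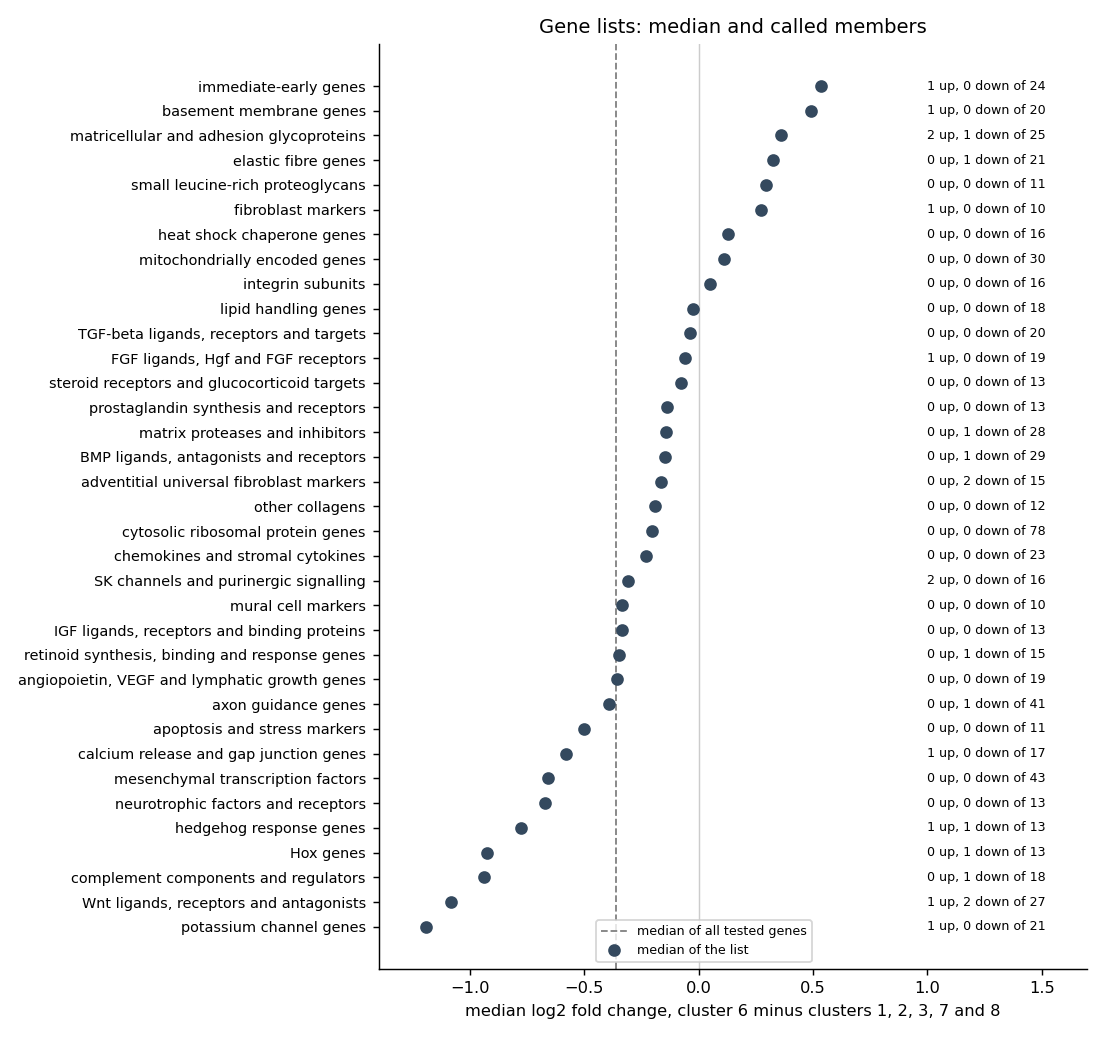
Points give the median log2 fold change of cluster 6 against clusters 1, 2, 3, 7 and 8 for gene lists with at least 10 fitted members, beside the dashed median of all genes at -0.36, with the called members written at the right. The immediate-early and basement membrane lists lie at 0.53 and 0.49 and the Wnt list at -1.08, and no list has more than 2 called members in 1 direction.

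The 10 fibroblast markers were all present, with a summed level of 15463 to 25245 reads per 500000 over groups, as against 14651 to 21434 in comparison cells. The 12 mural markers summed to 113.3 to 203.6 in cluster 6 and 132.02 to 301.6 in comparison cells, with medians over groups of 163.4 and 156.4, and were higher in cluster 6 in 4 of 6 groups. Acta2, the smooth muscle actin, stood at 47.9 in cluster 6 and at 4622 ± 1680 in mural cluster 10 (n = 7 groups). The 9 endothelial markers summed to 40.8 to 92.3 and 47.6 to 90.6. The 8 detrusor markers were higher in cluster 6 in all 6 groups, 94.2 to 152.9 as against 86.1 to 119.8, of which Smtn gave 91, and the muscarinic receptor genes Chrm2 and Chrm3 were at 0. Their part in the results was not tested. In their highest group, immune markers summed to 24, glial and neuronal markers to 20.8, lymphatic endothelial markers to 13.4, urothelial markers to 63.2 and mesothelial markers to 34.2. Cd3e of T cells, Elavl4 of neurons and Lrrn4 of mesothelium were at 0, as were the 4 adipocyte markers. The 3 markers of interstitial cells of Cajal summed to 3.27 to 43.8, of which Kit, the defining receptor, gave 0.0192. The 11 markers of cluster 5 summed to 62.3 to 118.04 in cluster 6 and 97.9 to 247.2 in comparison cells.

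Cells within cluster 6 differed widely among themselves. In the PdgfrbGFP group on bladder_881s, the 10th and 90th percentiles of Kcnn3 were 117.1 and 1283 reads per 500000. Across cells of the 4 groups with at least 15 members, Spearman's rho of Kcnn3 with Thbs2 was 0.38 in C57BL6 (19 cells), 0.23 in PdgfraGFP (30 cells), and 0.31 (66 cells) and 0.49 (55 cells) in the PdgfrbGFP groups on bladder_074s and bladder_881s. For Timp3 it was -0.18, -0.28, -0.49 and -0.47. For Svep1, the other proposed marker, it was -0.02, -0.24, 0.12 and 0.09. Cells of a group share a plate, and these values describe them without a test.

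Between groups, the 6 genes with the greatest spread of their cluster 6 level were Arc, Nup93, Zfp318, Amotl2, Mad2l1 and Ptgs2. Their SD over groups ran from 2.71 to 3.02 on the log2 scale, as against a median of 0.79 over 4517 genes. The smallest groups held many of the extreme values. Arc, an immediate-early gene, reached 150.97 in Acta2GFP from 1 of 6 cells and stood at 64.5 in PdgfrbGFP on bladder_074s, where 42 of 66 cells had a read. Ptgs2, the inducible cyclooxygenase, stood at 37.1 to 152.1 in 5 groups and had no read in the 9 PdgfrbGFP cells on bladder_515s. Amotl2, a gene of the angiomotin family, had a read in 1 of those 9 cells as against 19 of 19 in C57BL6.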

How the data were processed

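Single cells of the bladder were sorted into plates with ERCC RNA and sequenced with Smart-seq2 as single reads. The deposited values are raw counts, which the authors made with trim galore, TopHat2 on GRCm38, removal of reads with samtools and featureCounts. The study lists versions for these tools, and the strand setting is not given in the sources used here. The authors also filtered cells and assigned the clusters with pagoda2. The table held 46517 gene rows, 92 ERCC rows (left out of all tests) and 1479 cells, 188 of them in cluster 6, with 50276 to 1446060 reads each. No column was left without a sample (0), and 0 pairs of cells had identical counts. GENCODE M21 named 46005 identifiers and left 512 unnamed.

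Counts were summed per plate, line and class of cells where both classes had at least 3 cells, and fitted (185 and 895 cells) with edgeR 4.0.16 in R 4.3.3 (TMM scaling, filterByExpr, plate-and-line group as a block). p-values measure only the spread between these groups. Levels are reads per 500000 reads of genes, and differences by group add 1 read. Shares came from cells thinned to 50000 reads, which 6 cells did not reach, with exact Clopper-Pearson 95% intervals for counting error only. DESeq2 1.42.0 and limma 3.58.1 were alternatives. Scripts were tested on simulated data. The members and lists were chosen with earlier results of these data known. Named were Kcnn3 and Svep1, the 12 called genes of largest fold in each direction with the same sign in every group and a level of at least 10 in the higher class, called list members with up to 4 further members per list, up to 3 genes per direction against single clusters, marker genes, and the 6 genes most variable over groups with a level of at least 20. Remaining genes of short call lists were named after their values were seen. Predicted genes were counted, not described.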

Additional observations from a re-analysis of the deposited data

Results flagged for a closer look

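Of 44 quantities checked over the 6 groups, 2 had a group that stood apart by Dixon's test at the 95% level, and chance flags about 1 in 20. Both were in the Acta2GFP cells on bladder_515s, the smallest group with 6 cluster 6 cells. The log2 difference of the Fn1 level was -0.29 there and -2.01 to -1.46 in the other groups. That of Gas1 was 0.34, as against 0.82 to 1.09. Outside the comparisons, the 3 cluster 6 cells of the Cspg4dsRED line all held Kcnn3 reads, with a median level of 788 reads per 500000 and a range from 4.30 to 958, while the 30 cells of clusters 1, 2, 3, 7 and 8 on the same plates and line had a median of 0 and a mean of 119.7. Other genes higher in cluster 6 did not all follow in these 3 cells: Spon2 had a median of 3.03, as against 15.4 in the 30 cells, and Gucy1a1 a read in 1 cell and a median of 0, as against 4.64. Svep1 and Thbs2 did follow, with medians of 1230 and 581, as against 200.67 and 4.15, though Thbs2 had a read in 2 of the 3 cells. With 3 cells this was not tested.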

How the results depend on the processing

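Percentages of genes called are given on 1 scale, that of the genes fitted in the comparison as reported (13728 genes for all 5 clusters together). They are not percentages of the genes that an alternative itself fitted, whose number differs where groups or reads are left out. Against clusters 1, 2, 3, 7 and 8 together, 0.517% were called. The figure was 1.22% with the median gene at 0, 4.84% with DESeq2, 1.33% with limma-voom, 0.0291% with sums per line and, in an alternative chosen after seeing the data, 0.255% with the 4 groups of at least 15 cluster 6 cells, and of the 71 genes 66, 70, 58, 3 and 19 were among those called. Leaving out 1 group gave 0.102 to 0.452%, that is 14 genes without PdgfrbGFP on bladder_881s, 16 without C57BL6, 21 without PdgfraGFP and without PdgfrbGFP on bladder_515s, 34 without PdgfrbGFP on bladder_074s and 62 without Acta2GFP. Without the replicate block, that is with no pairing of both classes of a plate-and-line group, 54 genes were called (0.393%), 42 of them shared. The pairing comes from the shared plate and line. Median-of-ratios scaling gave 77 called genes (70 shared), no filter on low counts 55 (45 shared) and thinned cells 78 (51 shared). With the comparison clusters at equal weight, 71 genes were called (57 shared). Leaving cluster 2 out of the comparison cells gave 62 genes, all of them shared. Adding clusters 4, 9 and 11 to the comparison cells gave 63 (60 shared). For clusters 1, 2, 3, 7 and 8 alone, DESeq2 called 3.26, 5.28, 1.69, 6.42 and 2.23%, sums per line 0.00937, 0, 0, 0.559 and 0.00867%, and thinned cells, on the same scale, 0.806, 0.610, 0.170, 1.97 and 0.356%. At an unadjusted p under 0.05, edgeR with sums per line gave 519 and 397 genes for clusters 2 and 3. Leaving out 1 group gave 0.0375 to 0.347%, 0 to 0.652%, 0 to 0.0973%, 0.957 to 1.96% and 0.0260 to 0.0954%. For clusters 2 and 3, calls fell to 0 without C57BL6 (edgeR, with 592 and 504 genes at an unadjusted p under 0.05), and rose to 61 and 12 without Acta2GFP. For cluster 3 they also fell to 0 without PdgfrbGFP on bladder_515s or on bladder_881s (554 and 594 genes at an unadjusted p under 0.05). The cause was not tested. Of the 38 leading genes of the comparison with all 5 clusters and the 27 gene-and-cluster pairs leading a single cluster's comparison, none changed sign in the alternatives in which it could be fitted. Of 21 further genes whose levels are given, none of the 5 that changed sign was called: the log2 fold change of Timp2 was 0.0372 with median-of-ratios scaling, 0.35 with the median gene at 0, 0.0372 with DESeq2, 0.0418 with limma-voom and 0.0287 with the 4 groups. That of Fbln1 was 0.0358, 0.35 and 0.0358 with the first 3 of these and 0.00858 without the replicate block. That of Pdgfrb was 0.24 with the median gene at 0, 0.0806 with limma-voom, 0.00991 with sums per line and 0.28 with the 4 groups. Tcf21 gave -0.0316 with limma-voom and Pi16 0.20 with the median gene at 0. Leaving out 1 group gave -0.053 to 0.064 for Timp2, -0.044 to 0.021 for Fbln1 and -0.27 to 0.054 for Pdgfrb. Kcnn3 and Thbs2 were called in 18 of 18 alternatives of the comparison with all 5 clusters and Svep1 in 4. The calls of Gucy1a1, Spon2, Timp3, Wnt2 and Sfrp2 held in 17 of 18. Other calls held less often: Lamb1 in 15, Gas1 and Dapk2 in 9, and Spry4 and Vwa1 in 8. Those of P2ry1, Ssc5d, Sema3c and Hhip held in 7 and that of Pdgfra in 6. The difference in total reads ran from 0.00512 to 0.176 when 1 group was left out. The ERCC difference turned from -0.00501 to 0.00149 with lines as units and ran from -0.0301 to 0.028 when 1 group was left out.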
